A study of Mus musculus with 4 samples.

Results

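The regions described here are those on mouse chromosome 15 at which chromatin immunoprecipitation followed by sequencing (ChIP-seq) gave signal of 2 splice isoforms of the transcription factor Mef2D. Members were taken by chromosome name alone. There were 1452 of the 19749 regions of the combined table, 707 of the 8872 peaks listed for Mef2Da1 and 774 of the 10105 peaks listed for Mef2Da2. All 4 libraries came from the mouse muscle precursor line C2C12, taken 5 days after the switch to a low-serum medium with insulin and transferrin, in which such cells form myotubes. Mef2Da1 and Mef2Da2 were precipitated with antibodies raised against isoform peptides, and the controls Mef2Da1-BLOCK and Mef2Da2-BLOCK used the same antibodies blocked with peptide. Each group was 1 library of 1 cell line, so values carry no replicate error and conditions were not tested against each other.

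Mef2D belongs to the MEF2 family, which binds A/T-rich elements in the control regions of muscle genes and works with the myogenic bHLH factors. Its isoforms arise from mutually exclusive exons next to the DNA-binding domain. Mef2Da1 is widely expressed and can be phosphorylated by protein kinase A, whereas Mef2Da2 appears during muscle differentiation and escapes that phosphorylation. A library made with peptide-blocked antibody shows the coverage that remains when specific capture is hindered.

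Heights below are the authors' coverage heights per region. They are whole numbers without scaling, and the depth was unknown. The deposited peaks carry a −log10 p of at least 6.01, and the combined table holds no region in which the −log10 p of both isoforms sums to less than 6.06. Intervals of shares (exact Clopper-Pearson) and of medians (from ranks) are at 95%, treat regions as independent and cover counting or the spread over regions only. Neighbouring regions can share their chromatin, so these intervals are likely too narrow. Genes were not assigned, for want of an mm9 annotation in this work, and regions are given by mm9 position and not by gene.

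Chromosome 15 had the highest density of Mef2D regions among the 19 autosomes. Measured from the first base to the last region, it held 14.0 regions per Mb, 1.81 times the 7.75 per Mb of the other 18 autosomes. Listed peaks were denser to a like degree, with 6.84 Mef2Da1 peaks per Mb against 3.46, and 7.49 Mef2Da2 peaks per Mb against 3.95. The chromosome made up 4.19% of the length and 7.35% of the regions. Chromosome 11 was next, with 12.1 regions per Mb, then chromosome 17 with 10.7. Among peaks at or above the median −log10 p of their list, the density was 2.16 times that of the other autosomes for Mef2Da1 and 1.97 times for Mef2Da2. The higher density was therefore also present among the stronger peaks.

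The blocked controls were also highest here. Over its regions chromosome 15 had the highest mean height of all autosomes in both of them. The mean was 22.5 for Mef2Da1-BLOCK against 18.8 on the other autosomes, a ratio of 1.20, and 14.6 for Mef2Da2-BLOCK against 12.4, a ratio of 1.18. The next highest chromosome in both controls was 17, with 20.4 and 13.4. Chromosomes 15, 11, 17, 19 and 8 held density ranks 1 to 5 in that order. Their ranks in mean height were 1, 3, 2, 5 and 4 for Mef2Da2-BLOCK and 1, 5, 2, 14 and 3 for Mef2Da1-BLOCK. The order was not shared throughout. Chromosome 19 had a mean Mef2Da1-BLOCK height of 18.6, whereas chromosome 5, at density rank 13, had 19.5 (rank 4). The isoforms themselves were close to the rest. On no chromosome is a region with a summed isoform −log10 p below 6.06 included, which bounds low isoform heights everywhere. Mef2Da1 had a mean of 50.7 against 49.2, the highest of the autosomes by a small margin, and Mef2Da2 had 47.5 against 48.5, which placed it at rank 14. The part of the blocked coverage in the density was not tested.

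**Figure D1:**
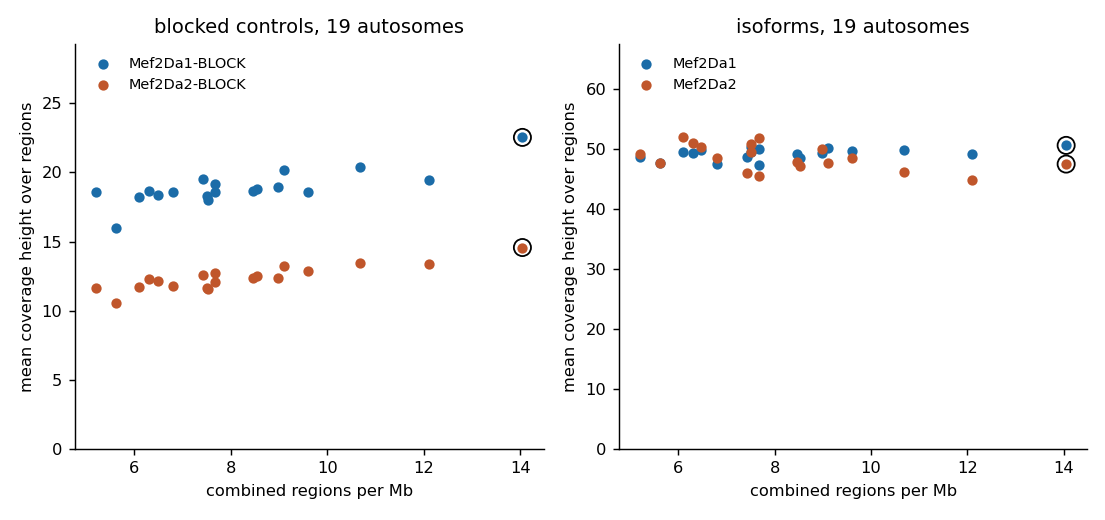
Mean coverage height over combined regions (y) against combined regions per Mb (x) for the 19 autosomes, with blocked controls on the left and isoforms on the right, and 1 point per chromosome and library. The ringed points are chromosome 15, which lies farthest right at 14.0 regions per Mb and highest in both blocked controls (22.5 and 14.6), while its Mef2Da1 mean of 50.7 is the highest by a small margin and its Mef2Da2 mean of 47.5 has rank 14.

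The higher blocked heights were found in most windows of the chromosome. In 67 of 72 windows of 1 Mb with at least 5 regions (93.1%, interval 84.5 to 97.7), the median Mef2Da1-BLOCK height exceeded 18, the median over the other autosomes. On those autosomes this held in 550 of 1225 such windows (44.9%, 42.1 to 47.7). For Mef2Da2-BLOCK, with a median of 12 elsewhere, the counts were 52 of 72 windows (72.2%, 60.4 to 82.1) and 444 of 1225 (36.2%, 33.5 to 39.01). Low heights were also shifted. The lowest 10% of regions reached up to 14 for Mef2Da1-BLOCK and 8 for Mef2Da2-BLOCK on chromosome 15, against 10 and 6 elsewhere.

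Along the chromosome the regions were unevenly spread. Of its 104 windows of 1 Mb, 14 held no region, and the median window held 9 (quartiles 2.75 and 21.25), against a median of 5 over the 2371 windows of the other autosomes. The first 3 Mb, the 4 Mb from 16 to 20 Mb and the 4 Mb from 45 to 49 Mb were empty. Boundaries of the following stretches were set after the counts had been seen. From 0 to 25 Mb there were 112 regions, or 4.48 per Mb. Between 25 and 45 Mb there were 261, or 13.1 per Mb, and between 45 and 75 Mb 323, or 10.8 per Mb. The stretch from 75 to 86 Mb held 402 regions, 36.5 per Mb and 27.7% of the chromosome's total. After 97 regions between 86 and 96 Mb, the stretch from 96 to 104 Mb held 257, or 32.1 per Mb.

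The densest windows were defined as those at or above the 90th percentile of the counts, which gave a minimum of 36 regions and 11 windows. Since counts chose them, their counts are a description. They held 502 of the 1452 regions (34.6%, 32.1 to 37.1) in 10.6% of the windows, 45.6 regions per Mb against 10.2 outside. Listed peaks followed, with 24.2 Mef2Da1 and 22.6 Mef2Da2 peaks per Mb inside against 4.74 and 5.65 outside. By the same minimum, 29 of 2371 windows on the other autosomes were dense (1.22%), and 1.62% of all 2475 windows. Thus 11 of the 40 such windows of the genome's autosomes lay on this chromosome. The minimum was taken from the counts of chromosome 15 itself, so its own 11 windows, or 10.6%, were set by that rule. The windows just inside the limit held 37 and 38 regions, and those just outside held 33 and 32.

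By mm9 position, the densest window was 76 to 77 Mb with 67 regions. It ranked second among all autosomal windows, behind 1 on chromosome 10 with 73. Its neighbours from 77 to 80 Mb held 46, 43 and 58 regions, so that 4 adjacent windows formed a run of 214 regions. The window from 81 to 82 Mb, with 40, lay just beyond. Toward the end of the chromosome came 98 to 99 Mb with 38 regions, 99 to 100 Mb with 43 and 102 to 103 Mb with 49. The other 3 stood alone at 25 to 26 Mb with 37, 38 to 39 Mb with 38 and 58 to 59 Mb with 43. Counting listed Mef2Da1 peaks in place of regions picked out the same 11 windows. Counting Mef2Da2 peaks picked out 11 windows that held 372 of the 502 regions.

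**Figure D2:**
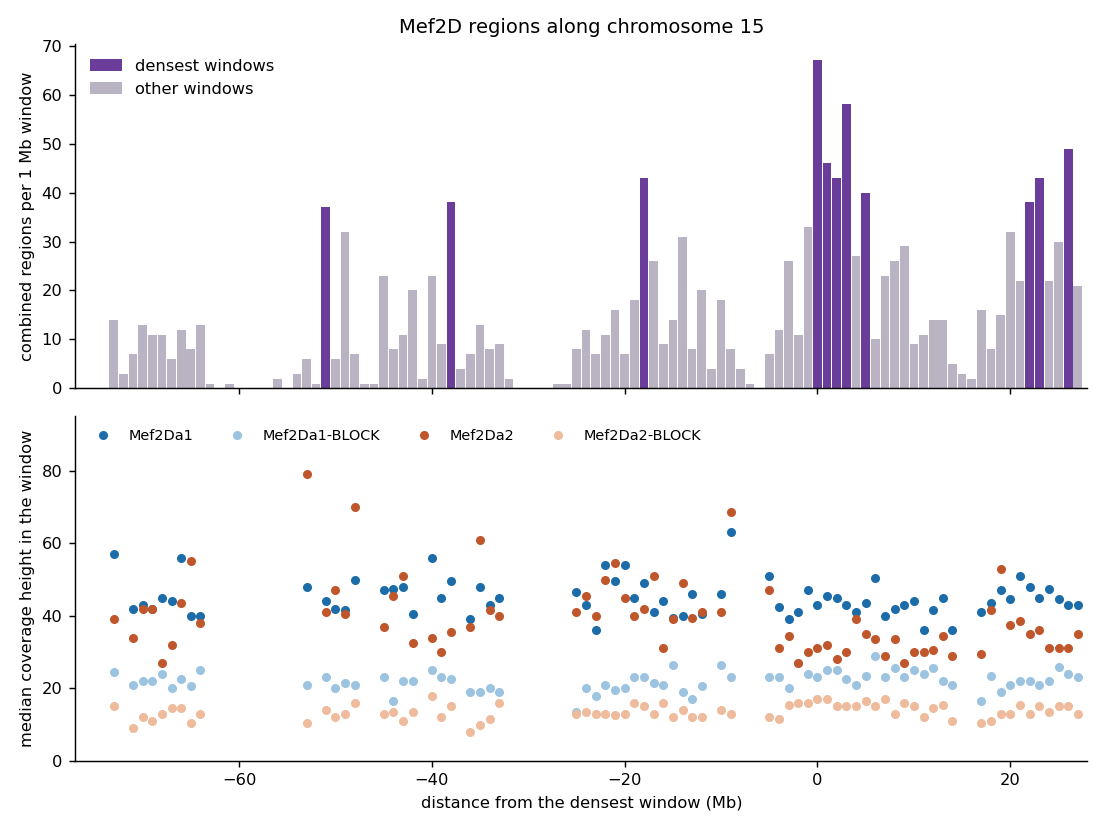
Combined regions per 1 Mb window (upper panel, bars) and the median coverage height of each library in windows of at least 5 regions (lower panel, points), both against the distance in Mb from the densest window of chromosome 15. Dark bars mark the 11 densest windows of 36 to 67 regions, of which 4 are adjacent. The blocked controls lie low in the lower panel, with window medians from 13.5 to 29 for Mef2Da1-BLOCK and from 8 to 18 for Mef2Da2-BLOCK.

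Inside the densest windows Mef2Da1 stood at the same height as outside, Mef2Da2 stood slightly lower, and Mef2Da2-BLOCK stood slightly higher. The median Mef2Da1 height was 45 inside (43 to 47) and 44 outside (43 to 45). For Mef2Da2 it was 34 inside (32 to 36) and 37 outside (35 to 39), and the mean was 44.0 against 49.4. Mef2Da1-BLOCK had a median of 23 inside (22 to 24) and 22 outside (21 to 22), and Mef2Da2-BLOCK of 15 inside (15 to 16) and 14 outside (13 to 14). The Mef2Da1 intervals overlapped. Those of Mef2Da2 touched, with an upper bound of 36 inside above the lower bound of 35 outside. The median intervals of the blocked controls met at 22 for Mef2Da1-BLOCK and were apart for Mef2Da2-BLOCK.

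The lower Mef2Da2 height inside rested in large part on the run from 76 to 80 Mb. There the median Mef2Da2 height was 31 (28 to 32), against 36 (34 to 39) in the other 7 densest windows. Without the 4 windows of the run the difference between inside and outside was −1 in place of −3, an alternative chosen after the values had been seen. Mef2Da1 did not show this split, with medians of 44 (42 to 46) in the run and 45.5 (43 to 48) in the other 7 windows. The medians of the blocked controls were 24 and 16 in the run and 23 and 15 in the others. Mef2Da2 medians also differed by position, with 37.5, 38 and 42 in the stretches 0 to 25, 25 to 45 and 45 to 75 Mb. They were 31, 33 and 33 from 75 to 86, 86 to 96 and 96 to 104 Mb. The sparse stretch from 86 to 96 Mb, with 9.70 regions per Mb, held no densest window. Whether density or position set the difference was not tested.

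A like pattern was present in the 29 dense windows of the other autosomes, which held 1261 regions. Their median Mef2Da2 height was 34 (33 to 35) against 37 in the remaining windows, and Mef2Da1 had 44 (43 to 45) against 43. Mef2Da1-BLOCK had 20 (20 to 21) against 18 and Mef2Da2-BLOCK 14 against 12. Blocked heights in the densest windows of chromosome 15 lay above these dense windows in median, by 23 against 20 for Mef2Da1-BLOCK and 15 against 14 for Mef2Da2-BLOCK.

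**Figure D3:**
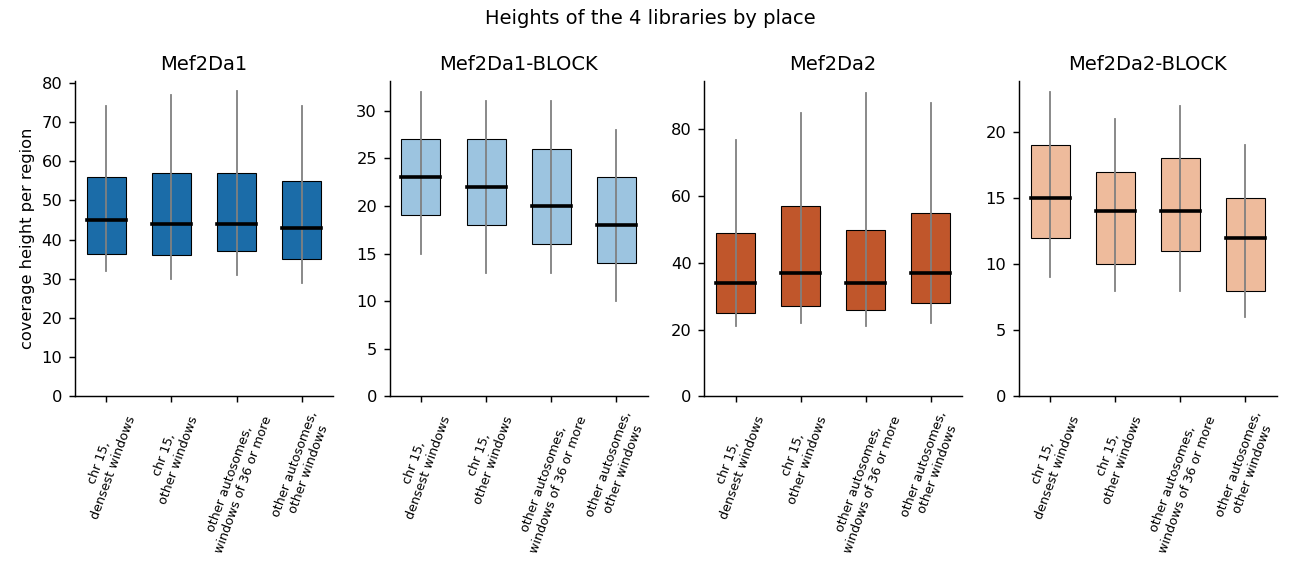
Coverage height per region (y) for each library in 4 sets of regions: the densest windows and the other windows of chromosome 15, and windows of 36 or more regions and all other windows on the other autosomes. Boxes span the quartiles, thick lines are medians and thin lines run from the 10th to the 90th percentile. Mef2Da1 medians lie between 43 and 45 in all 4 sets, whereas Mef2Da1-BLOCK has 23 in the densest windows of chromosome 15 and 18 in the other windows of the other autosomes.

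With windows of like density set side by side, the blocked controls of chromosome 15 were higher in each of 4 density bands. In windows of 1 to 9 regions the mean Mef2Da1-BLOCK height was 20.4 on chromosome 15 and 17.7 on the other autosomes. It was 22.5 against 18.5 for 10 to 19 regions, 22.7 against 19.6 for 20 to 35, and 23.2 against 21.3 for 36 or more. Mef2Da2-BLOCK gave 12.4 against 11.1, 13.8 against 12.1, 14.6 against 13.2 and 15.8 against 14.5 over the same bands. The isoforms had higher means on chromosome 15 in 3 of the 4 bands and lower ones in the densest. From the sparsest band on, Mef2Da1 gave 48.4 against 47.0, 50.8 against 49.4, 51.95 against 50.02 and 50.3 against 52.2. Mef2Da2 gave 52.1 against 48.3, 49.56 against 49.54, 48.2 against 47.6 and 44.0 against 47.4, so that its middle bands were nearly level.

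**Figure D4:**
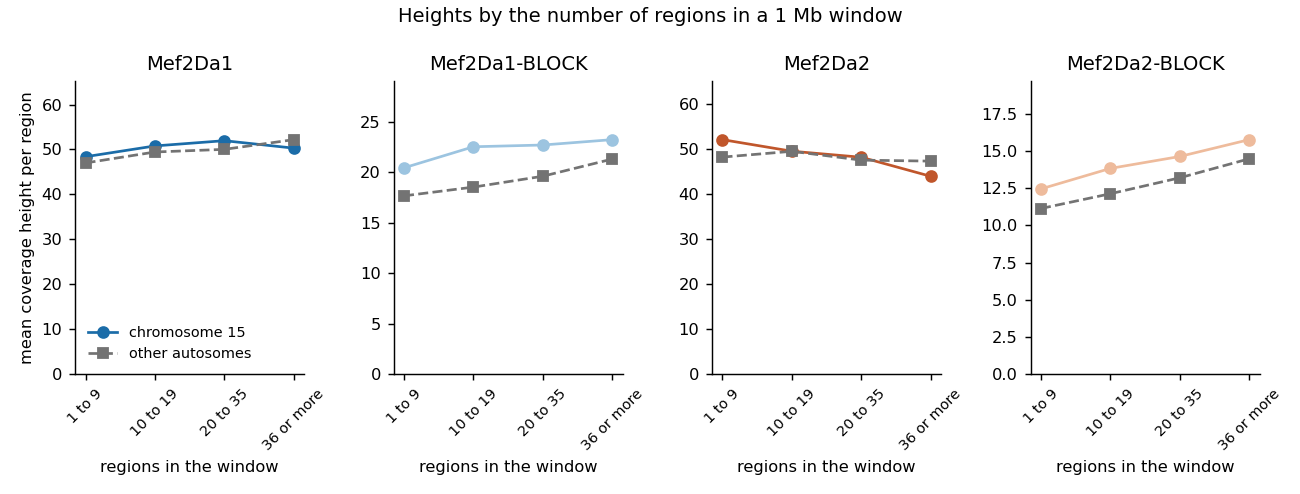
Mean coverage height per region (y) by the number of regions in the 1 Mb window (x) for each library, with chromosome 15 as coloured circles and the other autosomes as grey squares. Both blocked controls lie higher on chromosome 15 in every band (20.4 against 17.7 and 12.4 against 11.1 in the sparsest), and the isoform lines cross.

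Within chromosome 15, windows with more regions had higher Mef2Da2-BLOCK medians. Over 72 windows of at least 5 regions the Spearman correlation of the count with the median height was 0.51 for Mef2Da2-BLOCK and 0.35 for Mef2Da1-BLOCK, against −0.02 for Mef2Da1 and −0.30 for Mef2Da2. These are descriptions over windows that share the same libraries. Over the 51 windows of at least 10 regions the value was 0.49 for Mef2Da2-BLOCK but −0.01 for Mef2Da1-BLOCK, so the latter relation rested on windows of 5 to 9 regions.

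Among regions with a summed isoform −log10 p of at least 6.06, each isoform exceeded its blocked control by less on chromosome 15 than elsewhere. These ratios use the heights given above, where isoform means were near those elsewhere. They therefore largely restate the higher blocked heights and are not a separate line of support. Mef2Da1 was at least 2-fold above Mef2Da1-BLOCK, without scaling and with a pseudocount of 1, in 751 of 1452 regions (51.7%, 49.1 to 54.3), against 64.7% of all regions of the table and 65.7% (65.0 to 66.4) on the other autosomes. Mef2Da2 was at least 2-fold above Mef2Da2-BLOCK in 965 regions (66.5%, 64.0 to 68.9), against 75.0% of all regions and 75.6% (75.0 to 76.3) on the other autosomes. The median log2 ratio was 1.00 against 1.21 for Mef2Da1 and 1.33 against 1.66 for Mef2Da2. Where the isoform had a listed peak of its own, the shares were 76.2% (72.7 to 79.5) against 86.0% (85.2 to 86.8) for Mef2Da1, and 95.8% (94.0 to 97.2) against 98.0% (97.7 to 98.3) for Mef2Da2. Scaled to library totals over the table, the shares were 3.79% against 8.31% for Mef2Da1 and 8.82% against 16.4% for Mef2Da2. Chromosome 15 was again the lower, but such scaling in effect sets a stricter limit on the same heights.

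The densest windows were lower still for Mef2Da2. There 283 of 502 regions reached 2-fold (56.4%, 51.9 to 60.8), against 682 of 950 outside (71.8%, 68.8 to 74.6). For Mef2Da1 the counts were 238 of 502 (47.4%, 43.0 to 51.9) and 513 of 950 (54.0%, 50.8 to 57.2), and these intervals overlapped. In the dense windows of the other autosomes the median log2 ratio of Mef2Da1 was 1.10 and that of Mef2Da2 1.29, and in those of chromosome 15 they were 0.94 and 1.11.

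The score that the authors' table gives for a blocked control, read from its −log10 p column, was also higher on chromosome 15. Among the regions named below this score broadly rose with the blocked height, so it is not a separate line of support. A Mef2Da1-BLOCK score of 3 or more was found in 444 regions of chromosome 15 (30.6%, 28.2 to 33.02), against 16.5% of all regions and 15.4% (14.9 to 15.9) of those elsewhere. For Mef2Da2-BLOCK it was 114 regions (7.85%, 6.52 to 9.36), against 3.68% of all regions and 3.35% (3.09 to 3.62) elsewhere. Inside and outside the densest windows the Mef2Da1-BLOCK share was 30.9% (26.9 to 35.1) and 30.4% (27.5 to 33.5), and the Mef2Da2-BLOCK share 9.56% (7.13 to 12.5) and 6.95% (5.41 to 8.75), with overlapping intervals in both. Scores of at least 6 were rare. Mef2Da1-BLOCK had them in 5 regions of the chromosome (0.344%, 0.112 to 0.802), against 34 of all 19749 (0.172%). Mef2Da2-BLOCK had them in 0 of 1452, which allows a share of up to 0.254% by the exact interval, and in 0 of all 19749.

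The mix of isoform peaks on chromosome 15 was near that of the whole table. A listed Mef2Da1 peak lay in 626 regions (43.1%, 40.5 to 45.7), against 41.8% of all regions, and a listed Mef2Da2 peak in 649 (44.7%, 42.1 to 47.3), against 46.7%. No listed peak lay in 550 (37.9%, 35.4 to 40.4), against 38.1%. Peaks of both isoforms lay in 373 regions (25.7%, 23.5 to 28.02), against 26.6%, and of Mef2Da2 only in 276 (19.01%, 17.02 to 21.1), against 20.1%. These shares are near the background and give no result about the chromosome. Peaks of Mef2Da1 only lay in 253 (17.4%, 15.5 to 19.5), slightly above the 15.2% of all regions. Where both had a peak, each isoform had a median of 68 on chromosome 15, and the medians elsewhere were 65 for Mef2Da1 and 67 for Mef2Da2. The blocked controls had 24 and 15 in this class, against 19 and 12 elsewhere.

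The mix differed along the chromosome. In the densest windows 232 of 502 regions had a Mef2Da1 peak (46.2%, 41.8 to 50.7) and 194 a Mef2Da2 peak (38.6%, 34.4 to 43.1). Outside, 394 of 950 had a Mef2Da1 peak (41.5%, 38.3 to 44.7) and 455 a Mef2Da2 peak (47.9%, 44.7 to 51.1). The isoform with more peak-bearing regions thus changed between inside and outside. In the sparse stretch from 86 to 96 Mb, which held no densest window, 38.1% of regions had a Mef2Da2 peak and 50.5% had no listed peak. Regions with a Mef2Da1 peak only made up 22.7% (19.1 to 26.6) inside and 14.6% (12.4 to 17.04) outside. In the dense windows of the other autosomes this class made up 15.9% (14.0 to 18.1). The isoforms were nearly level in those windows. A Mef2Da1 peak lay in 518 of 1261 regions (41.1%, 38.3 to 43.9) and a Mef2Da2 peak in 506 (40.1%, 37.4 to 42.9). The shares in the remaining windows were 41.7% and 47.3%, so the Mef2Da2 share was lower inside and the Mef2Da1 share nearly the same.

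The 11 densest windows were unlike among themselves. In the run from 76 to 80 Mb, 64 of 214 regions had a Mef2Da2 peak (29.9%, 23.9 to 36.5) and 101 had no listed peak (47.2%, 40.4 to 54.1). In the 3 densest windows before the run, 65 of 118 had a Mef2Da2 peak (55.1%, 45.7 to 64.3) and 28 had none (23.7%, 16.4 to 32.4). The 4 after it lay between, with 65 of 170 (38.2%, 30.9 to 46.0) for a Mef2Da2 peak and 65 of 170 for none. The extremes were 58 to 59 Mb, where 6 of 43 regions had no listed peak, and 78 to 79 Mb, where 21 of 43 had none. Without the run, the share with a Mef2Da2 peak inside was 45.1%, within the interval found outside.

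**Figure D5:**
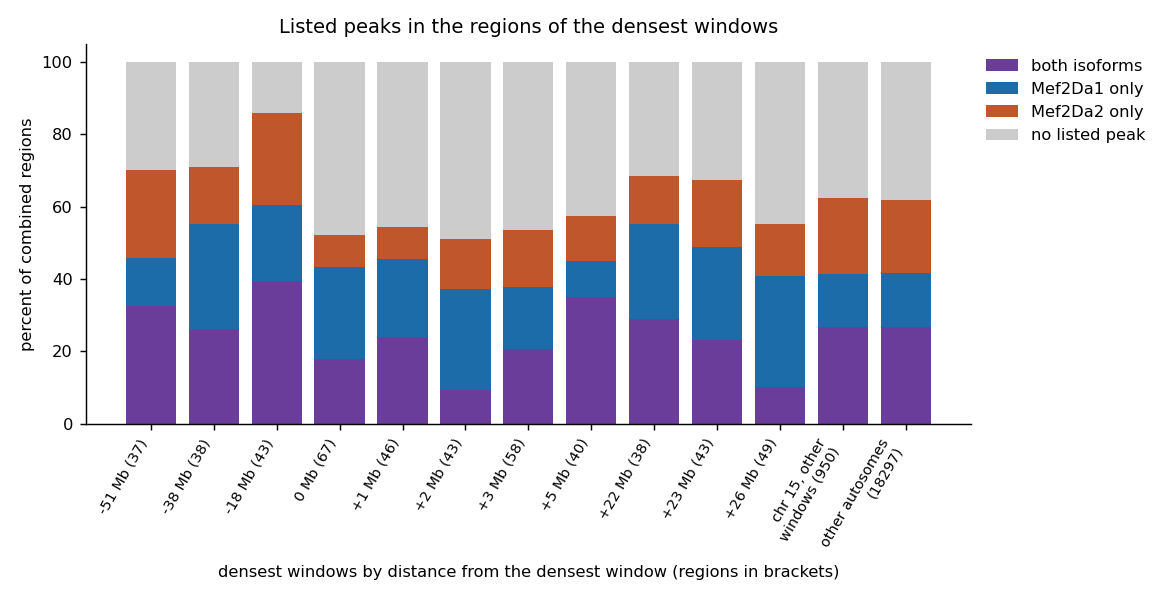
Percent of combined regions (y) that contain listed peaks of both isoforms, of Mef2Da1 only, of Mef2Da2 only or no listed peak, for the 11 densest windows of chromosome 15 in order of position, its other windows and the other autosomes. Windows are labelled by distance from the densest one, with the number of regions in brackets. Regions without a listed peak run from 14.0% in the window 18 Mb before the densest to 48.8% in the one 2 Mb after it.

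Set against each other after scaling to totals, the isoforms were within 2-fold in most regions of the chromosome. Mef2Da1 was over 2-fold higher in 152 regions (10.5%, 8.94 to 12.2), against 9.62% of all regions. Mef2Da2 was over 2-fold higher in 72 (4.96%, 3.90 to 6.20), against 7.03% of all regions and 7.19% (6.82 to 7.58) on the other autosomes. Inside the densest windows the counts were 62 of 502 for Mef2Da1 (12.4%, 9.60 to 15.6) and 17 for Mef2Da2 (3.39%, 1.98 to 5.37). The side with more regions changed with scaling: set to the median ratio, the shares on the chromosome were 6.82% for Mef2Da1 and 7.30% for Mef2Da2, against 6.26% and 9.90% elsewhere. Under both scalings the Mef2Da2 share was lower on chromosome 15.

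The highest regions were at several places. The one with the largest summed height of both isoforms, at 79073230 to 79074435, lay in the run. There Mef2Da1 reached 248 with 44 in its blocked control, and Mef2Da2 reached 386 with 26. It was followed by 36784501 to 36786595, with 260 and 319 against 30 and 18. At 26249561 to 26250672 Mef2Da2 stood well above Mef2Da1, with 357 and 139 against 14 and 25. The region 97944582 to 97946867 had 211 for Mef2Da1 and 279 for Mef2Da2, against 21 and 14. At 59626551 to 59627986 Mef2Da1 was the higher, with 258 and 228 against 25 and 13. Of these 5, only the first lay in a densest window, and it alone had no listed Mef2Da1 peak.

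The highest region of a dense window ranged widely in height. Since 3 windows tied for the fifth place with 43 regions each, 7 windows are described. In the window from 76 to 77 Mb, where the medians were 43 for Mef2Da1, 31 for Mef2Da2, 23 for Mef2Da1-BLOCK and 17 for Mef2Da2-BLOCK, it was 76043700 to 76044444. That region had heights of 72 and 200 for the isoforms against 23 and 27, and its Mef2Da2-BLOCK score was 4.03. The window from 79 to 80 Mb, with medians of 43, 30, 22.5 and 15 in the same order, held the highest region of the chromosome. In the window from 102 to 103 Mb, with medians of 43, 31, 24 and 15, the highest region at 102831036 to 102832325 had 72 and 84 against 18 and 11. At 77087789 to 77088154, in the window from 77 to 78 Mb, heights of 131 and 107 stood against 6 and 14, the lowest Mef2Da1-BLOCK height of these 7 regions. In the window from 58 to 59 Mb, whose medians were 49, 42, 23 and 15, the region 58886073 to 58886855 had 90 and 85 against 34 and 15. In the window from 78 to 79 Mb, the region 78333601 to 78336352 had 209 and 129 against 25 in each control. In the window from 99 to 100 Mb, the region 99163059 to 99165582 had 107 and 244 against 32 and 23.

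The largest differences toward 1 isoform had low values of the other. Ranking by ratio favours such values, so they are a description only. Toward Mef2Da2, the region 81008221 to 81008744 had a height of 128 against 18 for Mef2Da1, with 17 and 15 in their respective blocked controls. At 99668088 to 99668398 Mef2Da2 had 49 and Mef2Da1 had 9, below the 20 of Mef2Da1-BLOCK. At 72985777 to 72986191 Mef2Da2 had 98 and Mef2Da1 had 20, with 5 and 18 after blocking. The first 2 lay in densest windows. Toward Mef2Da1, the region 77196101 to 77196453 had 52 against 8 for Mef2Da2, with blocked heights of 14 and 9. The region 100154550 to 100155042 had 46 and 8, with 12 and 8 after blocking. At 75843181 to 75844538 they were 77 and 16 against 19 and 23. In the 3 regions toward Mef2Da1, Mef2Da2 did not exceed its own blocked control.

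Several regions with high Mef2Da1-BLOCK coverage had Mef2Da1 signal without a listed Mef2Da1 peak. Mef2Da1-BLOCK was highest at 82979178 to 82980777, with 52 against 106 for Mef2Da1. It reached 48 against 60 at 103002852 to 103003616 and 47 against 58 at 78656897 to 78657448. In these 3 regions the −log10 p of Mef2Da1 was 18.2, 8.19 and 7.83, yet only a Mef2Da2 peak was listed. Across the chromosome 58 of the 643 regions with a Mef2Da1 −log10 p of 6 or more had no listed Mef2Da1 peak (9.02%, 6.92 to 11.5), against 5.75% (5.23 to 6.30) elsewhere. A blocked score of 5 or more was found in 16 of these 58 and in 2 of the 585 with a listed peak, much as in 111 of 423 and 9 of 6937 on the other autosomes. Mef2Da2 did not show this. Of the 643 regions with a Mef2Da2 −log10 p of 6 or more, 9 had no listed Mef2Da2 peak (1.40%, 0.642 to 2.64), against 1.98% (1.70 to 2.30) elsewhere. On chromosome 15 their median Mef2Da2-BLOCK height was 11, against 13 with a listed peak, and no blocked score reached 5. Mef2Da2-BLOCK was highest at 77764156 to 77764626 and 102796864 to 102797189, with 34 in each against 42 and 41 for Mef2Da2, and at 78626325 to 78627414, with 33 against 39. All 3 lay in densest windows. The first had a listed Mef2Da2 peak, and the others had a Mef2Da1 peak only.

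At a finer scale, regions of chromosome 15 lay close to each other. The median distance from a region's midpoint to the nearest other was 7.73 kb (quartiles 2.53 and 21.6), against 12.3 kb elsewhere, and 812 of 1452 had a neighbour within 10 kb (55.9%, 53.3 to 58.5), against 45.5% (44.8 to 46.2). The fullest stretch of about 100 kb, at 77622312 to 77718171, held 20 regions, which is also the highest count on the other autosomes. Its Mef2Da1 heights ran from 29 to 85 with a median of 45.5, and those of Mef2Da2 from 18 to 60 with a median of 33. Mef2Da1-BLOCK ran from 13 to 37 with a median of 25.5 and Mef2Da2-BLOCK from 9 to 26 with a median of 17. This stretch had peaks of both isoforms in 5 regions and no listed peak in 9, and no isoform height in it exceeded 85. The stretches 76778674 to 76875733 and 81686350 to 81771071 followed with 15 regions each.

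Regions and peaks of chromosome 15 were also wider. The median region spanned 625 bp (607 to 640) against 550 bp (546 to 555) elsewhere, and 658.5 bp (625 to 709) in the densest windows. The width of Mef2Da1 peaks had a median of 487 bp (469 to 508) against 425 bp (422 to 430), and Mef2Da2 peaks 367 bp (360 to 377) against 344 bp (342 to 347). Peak heights differed less, with medians of 59 against 57 for Mef2Da1 and 57 against 56 for Mef2Da2.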

How the data were processed

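ChIP-seq libraries of 4 groups, 1 each, were read from the authors' deposited files: 1 peak list per isoform and 1 combined table. The submitters' processing notes name BWA 0.5.9 and the build mm9. How peaks were called and filtered, and how combined regions were chosen, is not given in the sources used here. Per the labels' protocols, chromatin was cut with MNase and sonication. The deposited coverage heights are signal values per region, and the deposited −log10 p was used as listed. For the blocked controls that column of the deposited table was used as a score, because a few values lay below 0. Columns were matched through the names of the samples' peak lists. Depth was unknown, so no interval was given for a height of 1 region.

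Regions were counted by midpoint in 1 Mb windows. A region contained a listed peak when both shared at least 1 bp. The regions named were the highest in each of the 5 densest windows (7 with ties), the 5 highest on the chromosome, the 3 with the largest ratio toward each isoform among regions with a listed peak, and the 3 highest in each blocked control. Code was tested on simulated data. Members and lists were chosen with earlier results of these data known. Alternatives are given in the closing section. No genome or annotation of mm9 was used, so genes, motifs and sequences are not reported. Tables were made in Python 3.11.15 with pandas 2.3.3 and NumPy 2.4.6, intervals with SciPy 1.17.1 and plots with Matplotlib 3.10.9.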

Additional observations from a re-analysis of the deposited data

How the results depend on the processing

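With 1 library per group and no depth, these values have no replicate error. No paired analysis was possible because each group has 1 library and no result comes from a test. Of 101 alternative values, 43 planned and 11 added ones stayed close to the main value, 45 and 1 moved further, and 1 changed sign. Asking for an overlap of 50% of the shorter of region and peak moved no class share.

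Keeping peaks at or above their list's median −log10 p left 3.71 Mef2Da1 and 3.93 Mef2Da2 peaks per Mb by construction. It gave classes of 14.3% (both), 9.30% (Mef2Da1 only), 9.44% (Mef2Da2 only) and 66.9% (none), with 24.1% inside and 23.4% outside for Mef2Da1 peaks and 19.9% and 25.8% for Mef2Da2 peaks. The densest windows numbered 6 at 2 Mb, 22 at 0.5 Mb, 7 at the 95th and 21 at the 80th percentile. They held 37.5% of regions with windows shifted by 0.5 Mb, 40.1% at 0.5 Mb, 24.0% and 54.7% at the 95th and 80th percentiles, and 31.7% when Mef2Da2 peaks were counted. The fullest window by regions was 75.5 to 76.5 Mb with shifted windows, 76 to 78 Mb at 2 Mb and 76.5 to 77 Mb at 0.5 Mb. In the other settings the windows themselves were unchanged, so the fullest stayed 76 to 77 Mb by construction. Among regions with a listed peak, the Mef2Da2 difference between inside and outside was −6.5. This set mixes classes, and regions with a Mef2Da1 peak only made up a larger share inside. By class, the Mef2Da2 medians inside and outside were 65.5 and 69 (both), 29.5 and 27 (Mef2Da1 only) and 48.5 and 47.5 (Mef2Da2 only). Without the run from 76 to 80 Mb, chosen after seeing the data, 45.1% of regions inside had a Mef2Da2 peak.

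Shares at least 2-fold above the blocked control, inside, outside, on chromosome 15 and elsewhere, were 2.19%, 4.63%, 3.79% and 8.31% for Mef2Da1 and 5.58%, 10.5%, 8.82% and 16.4% for Mef2Da2 when scaled to totals. With a pseudocount of 5 they were 38.4%, 42.4%, 41.0% and 55.4%, and 47.2%, 63.5%, 57.9% and 68.4%. Chromosome 15 was below the other autosomes in each. All of these use the same heights, and scaling multiplies every height of a library by the same factor. They are therefore not independent checks. Mef2Da1 was over 2-fold above Mef2Da2 in 6.82% of chromosome 15 and 6.26% elsewhere by median ratio, 7.78% and 7.14% with a pseudocount of 5, and 8.59% elsewhere at a summed height of 100 or more. The reverse held in 7.30% and 9.90% by median ratio, in 6.16% elsewhere with a pseudocount of 5 and in 8.005% elsewhere at that height. Over windows of 10 or more regions the Mef2Da1-BLOCK correlation was −0.0051; the cause was not tested.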

Other observations

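Listed peaks outside the combined table were more frequent on chromosome 15. Of its 707 Mef2Da1 peaks, 63 lay in no combined region (8.91%, 95% exact interval 6.92 to 11.3), against 4.79% (4.34 to 5.27) on the other autosomes. Of its 774 Mef2Da2 peaks, 107 lay in none (13.8%, 11.5 to 16.5), against 6.22% (5.73 to 6.72). Their median height was 59 in the Mef2Da1 list and 56 in the Mef2Da2 list, close to the 59 and 57 of all peaks of the chromosome, whereas such peaks elsewhere had 53 and 45. The highest of each list, picked after their values were seen, were the Mef2Da2 peak at 66715160 to 66715950 with a height of 273 and the Mef2Da1 peak at 96932522 to 96933021 with 218. Heights of the other libraries are not listed at these places. Counts of regions that contain a listed peak therefore miss a larger share of the listed peaks on this chromosome than elsewhere. Inside and outside the densest windows these shares had overlapping intervals, with 16.1% (11.7 to 21.2) and 12.8% (10.03 to 15.9) for Mef2Da2 and 7.89% (4.95 to 11.8) and 9.52% (6.95 to 12.7) for Mef2Da1.

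The authors' −log10 p at 1 band of heights was nearly the same on and off chromosome 15, although the blocked controls were not. In regions with a Mef2Da1 height of 40 to 49, the median −log10 p of Mef2Da1 was 5.61 (5.57 to 5.74) on chromosome 15 and 5.57 elsewhere, with median Mef2Da1-BLOCK heights of 23 and 19. In the same band of Mef2Da2 heights, it was 6.88 (6.78 to 7.03) and 7.03 (6.98 to 7.03), with Mef2Da2-BLOCK at 13 and 11. Mef2Da1 peaks overlapped a Mef2Da2 peak in 50.4% (44.2 to 56.5) of cases in the densest windows and in 62.1% (57.4 to 66.7) outside them. For Mef2Da2 peaks the shares were 56.6% (50.2 to 62.9) and 52.4% (48.01 to 56.7).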
